A study of Mus musculus with 7 samples.

Results

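Sustentacular cells are the supporting cells of the olfactory epithelium, and here they were taken from droplet single-cell RNA sequencing of whole mouse noses at embryonic day 14.5 by their own transcripts. A cell was counted as sustentacular if it held at least 1 UMI (unique molecular identifier, a counted transcript) of Cyp2g1, at least 1 UMI among Epcam, Krt8 and Krt18, at most 1 UMI of Gap43 and no UMI of Stmn3. The barcodes considered had at least 500 detected genes and at most 10% of UMIs from mitochondrial genes. The selection found 481 cells among 31465 kept cells, 471 of them in wild-type (WT) libraries. The study comprised 5 libraries labelled WT, from CD1 IGS mice, and 2 libraries labelled ProKR2iCre/R26tdTomato, from mice on a B6;SJL background with the Cre allele Prokr2em1(cre)Cfe and the reporter allele Gt(ROSA)26Sortm14(CAG-tdTomato)Hze. There Cre is made from the Prokr2 gene and activates the fluorescent protein tdTomato. According to the labels' protocols, 5 CD1 noses and 1 ProKR2iCre/R26tdTomato nose were dissociated with papain and collagenase and frozen before capture, and cells of the Cre nose were captured with sorting and without it. The labels do not say which ProKR2iCre/R26tdTomato library was sorted, nor which WT library came from which nose, so p-values below measure the spread between libraries.

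WT replicates 3 and 4 shared 7386 cell barcodes, and all remaining pairs shared at most 34. Replicate 3 was left out, which leaves 4 WT libraries, called replicates 1, 2, 4 and 5. Total depth ranged from 16773781 UMIs, in ProKR2iCre/R26tdTomato replicate 2, to 89800259, in WT replicate 1. WT replicate 1 was counted with another Cell Ranger version (6.0.1) than the other WT libraries (7.0.0), per the file headers, and some long genes had far lower levels in it. In the sustentacular cells Bmpr1b, for example, had 33.9 CPM (counts per 1000000 UMIs of the group) in replicate 1 and 441, 770 and 330 in replicates 2, 4 and 5. Whether intronic reads were counted is not given in the sources used here, and the part of the counting software in these levels was not tested.

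The olfactory epithelium is a layered sheet in which sustentacular cells span the full height, with nuclei near the surface and microvilli facing the nasal cavity. They surround the dendrites of olfactory sensory neurons, regulate the ions and water of the mucus and break down inhaled chemicals. Phase 1 enzymes such as cytochromes P450 oxidise a compound, and phase 2 enzymes then attach glucuronic acid, sulfate or glutathione to it. Cyp2g1 is a cytochrome P450 of the olfactory mucosa, Krt18 a keratin of simple epithelia, and Sox2 a transcription factor that supporting cells keep after their neighbours have become neurons.

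Sustentacular cells made up 2.31% of kept cells in WT replicate 1 (180 of 7790 cells, exact 95% binomial interval 1.99% to 2.67%) and 1.98% in replicate 2 (208 of 10496, 1.72% to 2.27%). The share was 0.825% in replicate 4 (58 of 7029, 0.627% to 1.07%) and 0.769% in replicate 5 (25 of 3250, 0.498% to 1.13%). The WT mean was 1.47% ± 0.791 (SD, n = 4). Replicates 1 and 2 lay above replicates 4 and 5 with intervals that did not overlap. Set against epithelial cells alone, the libraries were closer. Sustentacular cells were 12.3%, 12.3%, 9.37% and 6.35% of all sustentacular and other epithelial cells in replicates 1, 2, 4 and 5, with a mean of 10.1% ± 2.85 (SD, n = 4). Other epithelial cells are those with at least 1 Epcam UMI and none of Cyp2g1. Replicate 5 depended most on the cell filter: under a stricter filter (1000 genes, 5% mitochondrial UMIs) it kept 5 sustentacular cells (0.234% of kept cells), and with at least 2 Cyp2g1 UMIs required it kept 12 (0.369%). The median mitochondrial share of its sustentacular cells was 5.29%, against 2.57% to 3.25% in replicates 1, 2 and 4. The intervals cover counting error only. Dissociation and freezing can set such shares, which was not tested.

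**Figure D1:**
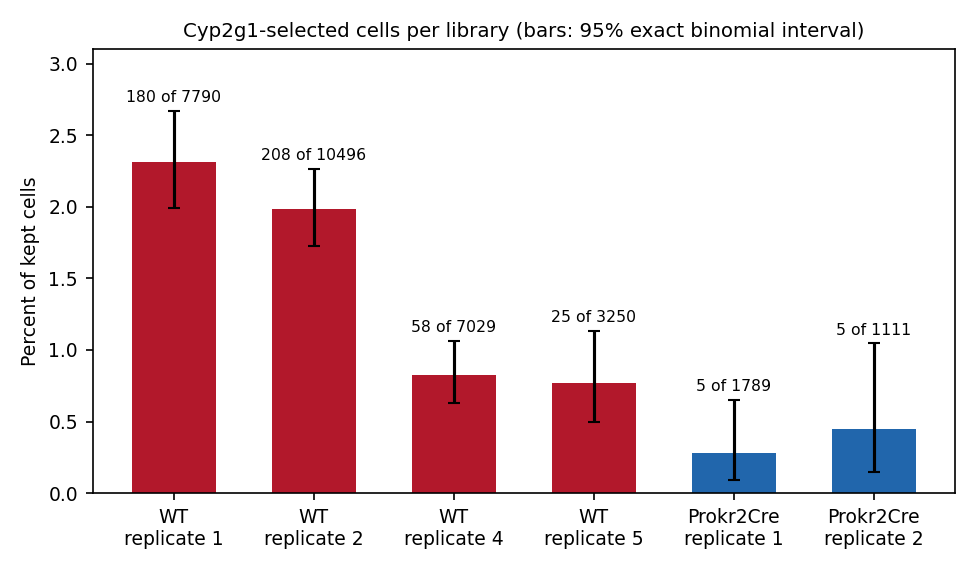
Share of kept cells that met the rule in each library, in percent, with exact 95% binomial intervals as error bars and the numbers of cells above. WT libraries (red) lay between 0.769% and 2.31%, and both ProKR2iCre/R26tdTomato libraries (blue, marked Prokr2Cre) at 0.279% and 0.450%.

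Of 640 cells with a Cyp2g1 UMI, 61 had no UMI of Epcam, Krt8 or Krt18 and 98 exceeded a neuronal limit. Of these 98 cells, 33 were just outside it. The 60 WT cells without an epithelial UMI had little else of the sustentacular profile. Their mean level of Sox2, over the 2 libraries with at least 10 such cells, was 9.92 CPM, and their 10 mesenchymal markers summed to 4184. Cells just outside the neuronal limit were close to the selected cells in Sox2 (329 CPM, 2 libraries) and Krt18 (1268), but held Hbb-bs, a globin of red blood cells, at 14157 CPM in replicate 1 and 19.4 in replicate 2. A Cyp2g1 UMI also occurred in 3 of 175 endothelial cells and in 41 of 16076 mesenchymal cells of the WT libraries, with median depths of 9139 to 21249 and 5160 to 11660 UMIs. Median depths of sustentacular cells were 8003.5 to 9621 UMIs.

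Krt18, whose presence the rule itself favours, stood at 1482, 1185, 1245 and 903 CPM in replicates 1, 2, 4 and 5. Sox2, which the rule did not use, stood at 302, 315, 413 and 317 CPM in sustentacular cells and at 101, 117, 140 and 85.7 in other epithelial cells. Every sustentacular value of Sox2 was above every value of the other cells. After each cell was thinned to 2000 UMIs, 42.3% ± 5.17 (SD, n = 4) of sustentacular cells and 15.6% ± 1.92 of other epithelial cells held a Sox2 UMI, against 0.340% of mesenchymal cells. Without thinning, the shares were 78.5%, 37.8% and 1.09%. Thinning left out 21 sustentacular, 144 other epithelial and 214 mesenchymal cells with fewer UMIs. Of the WT sustentacular cells, 440 of 471 (93.4%) held at least 3 of 20 sustentacular markers that the rule did not use.

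Markers of other cell types were also found. At least 3 mesenchymal markers were found in 92 of the 471 cells (19.5%), at least 3 basal markers in 71 (15.1%), neuronal ones in 57 (12.1%) and respiratory ones in 37 (7.86%). At least 3 erythroid markers occurred in 9 cells, and endothelial and immune ones in 1 cell each. Summed over their lists, mesenchymal markers ranged from 215 to 1220 CPM in sustentacular cells and from 827 to 2490 in other epithelial cells. Basal markers ranged from 128 to 283 against 1263 to 3240. Respiratory and ciliary markers summed to 2054, 341, 78.3 and 1344 CPM in sustentacular cells against 1154, 129.7, 93.8 and 158 in other epithelial cells, higher in all but replicate 4. Glial markers summed to 66.8, 127, 57.8 and 70.1 against 187, 64.0, 45.5 and 49.9, higher in all but replicate 1. Immune markers summed to 3.39, 2.59, 136 and 0 against 55.5, 15.6, 45.2 and 1.78, higher in replicate 4 only. All 10 mesenchymal and 13 of 14 basal markers had at least 1 UMI in the sustentacular cells. Their part in the results below was not tested.

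Genes were tested on UMI counts summed per library and cell group. Against other epithelial cells, 12254 genes were tested in 4 libraries, and at an adjusted p below 0.05 1237 of them (10.1%) were higher and 1309 (10.7%) lower in sustentacular cells. The median log2 fold change over all genes tested was -0.03. For 1273 of the 12254 genes the library values of the groups did not overlap, in either direction. The calls depend on comparing the groups within each library: without the library as a block 484 genes were called. A stricter comparison used epithelial cells with no UMI of the basal keratins Krt5, Krt14 and Krt15 and under the same neuronal limits. The keratin limit was not placed on the sustentacular cells. There 11114 genes were tested, of which 1106 (9.95%) were higher and 1078 (9.7%) lower, and without the block 266 were called. Because the cells were picked by Cyp2g1, genes active in the same cells are what these comparisons can return, and genes the rule used were not called. Levels are given in CPM as mean ± SD over the 4 WT libraries or per library in the order replicate 1, 2, 4 and 5. Fold changes are log2 values ± SE.

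Genes are named below from fixed lists or as the 12 with the largest rise among those called, higher in every library and averaging at least 50 CPM in sustentacular cells. These 12 include enzymes that modify foreign compounds, a water channel and transporters. Cyp2a5, a cytochrome P450 that oxidises coumarin and nicotine, had 207, 82.9, 44.6 and 41.2 CPM in sustentacular cells and 3.09, 4.08, 3.88 and 0.792 in other epithelial cells. Replicate 1 was well above the other 3 libraries, and every sustentacular value lay above all comparison values (log2 fold change 4.96 ± 0.31, adjusted p = 1.09e-08). The UMIs came from 81 of 180 cells in replicate 1 and from 44 of 208, 8 of 58 and 4 of 25 cells in the others. Cyp2a5 lies on chromosome 7, 14100 bases beyond Cyp2g1, in the same orientation (GRCm38, chr7:26808892-26821205 for Cyp2g1 and chr7:26835305-26843548 for Cyp2a5). Of the other genes within 200000 bases, Cyp2b19 had 1 UMI in all WT sustentacular cells and Vmn1r185, Cyp2b23, Cyp2a22 and Cyp2a12 had 0. Reads of Cyp2a5 and its near-identical relative Cyp2a4 may not be told apart by the authors' counting.

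Ugt2a1, an olfactory glucuronosyltransferase, had 40.6, 138, 22.9 and 124 CPM against 2.22, 11.04, 3.23 and 2.57 (log2 fold change 3.96 ± 0.26, adjusted p = 1.81e-08). Sult1e1, which sulfates estrogens, had 741, 838, 692 and 528 CPM against 77.0, 112, 88.2 and 25.1 (3.29 ± 0.17, adjusted p = 1.90e-09). Neither gene's groups overlapped. Both lie on the minus strand of chromosome 5 within a cluster of conjugating enzymes, Ugt2a1 at chr5:87459490-87490871 and Sult1e1 at chr5:87575969-87591594, 85098 bases apart. Between them, Sult1b1 was also higher (15.2 ± 3.53 against 3.72 ± 0.817, 2.02 ± 0.27, adjusted p = 3.33e-05). Sult1d1, another sulfotransferase in that interval, was lower (3.19 ± 4.80 against 9.81 ± 9.16, -1.30 ± 0.39, adjusted p = 0.0265), a call lost without replicate 4, without replicate 5, in DESeq2 and under the stricter cell filter, which also leaves replicate 5 out of the fit. Ugt2a2 overlaps Ugt2a1 and had 12 UMIs, so a division of reads between them is uncertain.

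Acsm4, a mitochondrial enzyme that activates medium-chain fatty acids, had 180, 238, 237 and 293 CPM against 20.03, 28.2, 32.3 and 23.4 (3.17 ± 0.13, adjusted p = 1.40e-10). The 250 bases before the RefSeq start of Cyp2a5, Ugt2a1, Sult1e1 and Acsm4 are shown because these 4 enzymes were higher in every library. They are RefSeq sequences on GRCm38.p6 (chr7:26835089-26835338, plus strand, chr5:87490872-87491121, minus strand, chr5:87591612-87591861, minus strand, and chr7:119689776-119690025, plus strand), written 5′ to 3′ on the strand of the gene. The gene positions given above are from GENCODE, whose starts differ from the RefSeq starts for Cyp2a5, where the window reaches into the GENCODE gene, and for Sult1e1. Capitals mark TTGGC or, for the other strand, GCCAA, the half-site of nuclear factor I proteins.
Cyp2a5: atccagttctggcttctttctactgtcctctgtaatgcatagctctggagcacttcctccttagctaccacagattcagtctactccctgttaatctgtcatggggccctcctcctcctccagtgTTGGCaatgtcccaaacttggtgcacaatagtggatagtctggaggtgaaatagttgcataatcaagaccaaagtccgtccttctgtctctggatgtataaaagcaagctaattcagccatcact
Ugt2a1: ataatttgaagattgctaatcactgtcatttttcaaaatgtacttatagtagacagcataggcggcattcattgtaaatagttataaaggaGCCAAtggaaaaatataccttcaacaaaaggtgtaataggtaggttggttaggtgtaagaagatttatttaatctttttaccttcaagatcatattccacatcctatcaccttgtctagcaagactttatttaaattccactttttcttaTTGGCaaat
Sult1e1: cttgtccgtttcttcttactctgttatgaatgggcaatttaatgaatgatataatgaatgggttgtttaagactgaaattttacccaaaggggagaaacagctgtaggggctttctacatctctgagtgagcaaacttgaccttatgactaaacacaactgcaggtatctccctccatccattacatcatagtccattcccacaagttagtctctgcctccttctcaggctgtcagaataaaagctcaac
Acsm4: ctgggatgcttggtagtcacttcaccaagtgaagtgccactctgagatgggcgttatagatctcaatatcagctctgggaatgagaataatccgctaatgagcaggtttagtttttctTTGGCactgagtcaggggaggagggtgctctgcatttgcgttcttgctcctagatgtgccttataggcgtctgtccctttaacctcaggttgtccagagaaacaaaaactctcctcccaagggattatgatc
The motif occurred 1 time before Cyp2a5 (125 bases before the RefSeq start) and Acsm4 (132 bases), 2 times before Ugt2a1 (159 and 9 bases) and not in the Sult1e1 window. Of the 12 genes, 10 had a RefSeq window of this kind and 6 of them held the motif. Over the same 250 bases it was present in 41.51% of all 32851 promoter windows. That share counts windows, whereas a gene was counted if any of its windows held the motif. A match describes these letters and is not a known binding site.

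**Figure D2:**
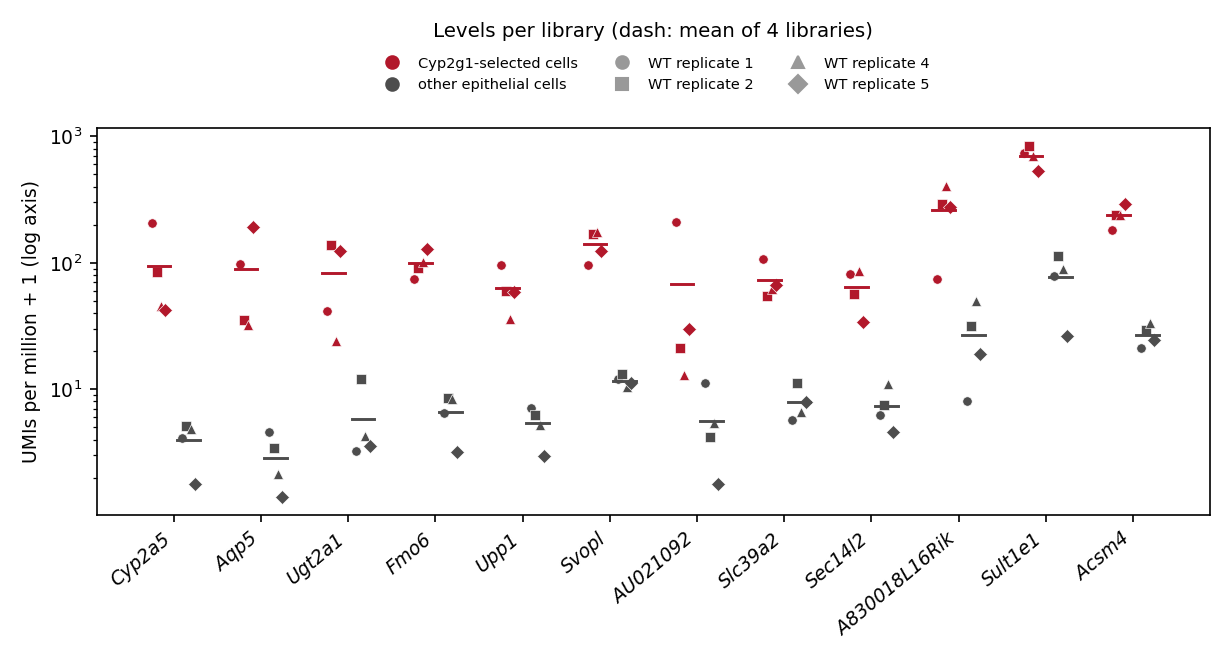
Levels of the 12 called genes with the largest rise among those averaging at least 50 CPM, in CPM plus 1 on a log axis, in sustentacular cells (red) and other epithelial cells (grey) of the same 4 WT libraries, with a dash at the mean. For each gene, every library's sustentacular value lies above every value of the other epithelial cells, and AU021092 shows 1 library (replicate 1) far above the others. These 12 were chosen for a large rise, higher in every library. Groups did not overlap, in either direction, for 1273 of all 12254 genes tested.

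Among these 12 genes, Fmo6, a flavin-containing monooxygenase, had 98.2 ± 22.8 CPM against 5.64 ± 2.49. Svopl, a putative transporter, had 141 ± 37.8 against 10.7 ± 1.25. Upp1, a uridine phosphorylase, had 61.7 ± 25.2 against 4.38 ± 1.78, Slc39a2, a zinc importer, 71.8 ± 23.6 against 6.87 ± 2.39, and Sec14l2, a lipid-binding protein, 63.5 ± 24.1 against 6.33 ± 2.74. A830018L16Rik had 74.0 CPM in replicate 1 and 288, 400 and 276 in the others, against 26.0 ± 17.9. AU021092 ran the opposite way, with 208 in replicate 1 and 20.3, 12.1 and 28.9 in the others. Its UMIs in replicate 1 were spread over 116 of 180 cells, with 3.71% of them in the richest cell.

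Of 30 listed phase 1 enzymes in the files, 16 passed the filter on low counts, 12 were higher, 1 was lower and 3 were not called. Their median log2 fold change was 1.05, against -0.03 for all genes. Without replicate 1, 8 of 15 were higher. Por, the reductase that hands electrons to every microsomal P450, had 344, 146, 277 and 210 CPM against 40.9, 33.9, 43.8 and 30.3, with no overlap (2.66 ± 0.14, adjusted p = 1.90e-09). Ephx1, an epoxide hydrolase, had 110 ± 38.3 against 21.7 ± 6.48 and Ces1d, a carboxylesterase, 45.8 ± 10.8 against 10.8 ± 2.65. Both were higher. Cyp2f2, a P450 abundant in airway club cells, was higher by a smaller margin with overlapping groups (1.06 ± 0.25), and its call was lost without replicate 2 and with at least 2 Cyp2g1 UMIs required. Cbr3 was the only phase 1 gene called lower (-1.27 ± 0.37), a call lost without replicate 1, without replicate 2, in DESeq2 and under the stricter cell filter. Cyp1a2, a sustentacular marker of the adult tissue, had 0.121 CPM and could not be tested.

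Of 19 phase 2 enzymes tested, 11 were higher and 2 lower, with a median of 1.03. Gstm5, a glutathione transferase, had 1115, 1062, 1211 and 1438 CPM against 183, 189, 194 and 161 (2.73 ± 0.11, adjusted p = 1.42e-10). Sult1c1, a sulfotransferase known from the olfactory mucosa, had 105, 38.0, 30.1 and 16.5 against 5.14, 0.937, 1.62 and 0.792 (4.56 ± 0.23). Replicate 1 was highest for this gene, as for Cyp2a5. Gstm1, of the same enzyme family, had 4149, 2144, 1064 and 1744 CPM against 843, 1337, 816 and 555, but its groups overlapped and it was not called against epithelial cells without basal keratins (0.62 ± 0.22, adjusted p = 0.0662). Gsto1, an omega-class transferase, was lower (24.7 ± 6.38 against 51.6 ± 13.3).

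Among 22 tested genes of ion and water transport, 10 were higher and 1 was lower. The median was 0.17. Water channels were among the higher genes. Aqp3, which also carries glycerol, had 239, 270, 129 and 218 CPM against 27.6, 60.0, 29.6 and 51.7 (2.44 ± 0.15, adjusted p = 1.02e-08). Aqp4 had 173, 66.5, 56.6 and 45.3 against 13.7, 8.77, 11.6 and 3.17 (3.14 ± 0.20). Aqp5, best known from gland cells including Bowman's glands, had 96.7, 34.6, 31.3 and 190 against 3.57, 2.41, 1.13 and 0.396 (4.93 ± 0.38). In replicate 5, 36 of the 46 Aqp5 UMIs came from 1 cell, against 7.5% to 15.4% from the richest cell elsewhere. The groups of these 3 genes did not overlap, as for 1273 of all 12254 genes tested, in either direction. Atp1b1, a subunit of the sodium pump, had 168 to 246 CPM against 58.4 to 105, and Slc26a7, an anion exchanger, 22.6 ± 4.57 against 5.97 ± 2.54. Both were higher. Car2, a carbonic anhydrase, was lower, at 0.867 ± 0.594 against 8.12 ± 6.01. Against epithelial cells without basal keratins, 10 of 20 were higher.

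Tight junctions seal the surface of the epithelium and adherens junctions join its cells below. Of 38 tested genes of junctions and polarity, 23 were higher and 5 lower, with a median of 0.57. Without replicate 1, 16 were higher and 5 lower. Nectin3, an adhesion protein of adherens junctions, had 107, 165, 231 and 235 CPM against 29.6, 60.8, 66.9 and 59.4 (1.75 ± 0.11, adjusted p = 1.78e-08). The claudins Cldn3 (429 ± 135 against 164 ± 45.6), Cldn7 (466 ± 198 against 200 ± 80.3) and Cldn9 (129 ± 31.8 against 46.7 ± 15.2) were higher. So was Crb3, a protein that marks the apical membrane (82.5 ± 21.9 against 35.7 ± 6.23). Ezr, which links microvilli to actin, had 293, 305, 369 and 342 against 133, 183, 183 and 159, with no overlap (1.00 ± 0.10). The lower genes were Cldn1, Gjb2, Pkp3, Gja1 and Dsp. Dsp, a desmosome protein, fell by 0.78 ± 0.11 on the log2 scale against all other epithelial cells but was higher by 1.03 ± 0.16 against those without basal keratins. In that comparison 29 of 36 junction genes were higher and 0 lower, with a median of 0.88.

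Transcription factors of the olfactory placode, the embryonic origin of the epithelium, divided into higher and lower members. Of 27 tested, 11 were higher and 9 lower (median 0.18). Sox2 rose by 1.60 ± 0.10 on the log2 scale (adjusted p = 1.23e-08). Otx2, a homeodomain factor, had 230, 303, 323 and 206 CPM against 32.9, 78.5, 106 and 36.2 (2.20 ± 0.16, adjusted p = 4.12e-08). The antisense transcript Otx2os1 was also high (381 ± 229), and reads of the overlapping pair may not have been told apart. Sox21, a relative of Sox2, had 64.2 ± 40.5 against 12.8 ± 6.78 (2.24 ± 0.16). Eya4, a cofactor of homeodomain factors, had 106, 541, 742 and 478 against 20.4, 167, 217 and 142 (1.90 ± 0.11), so each library's sustentacular value exceeded its own comparison value while the groups overlapped through replicate 1. Pax6 rose less (0.86 ± 0.14) and was not called against cells without basal keratins (0.41 ± 0.15, adjusted p = 0.0689). Lhx2, a factor of olfactory neurons and their precursors, was lower (12.1, 4.32, 38.6 and 0 against 76.6, 89.0, 345 and 66.5). With all other epithelial cells under the same neuronal limits Lhx2 was no longer called, but it was lower against those without basal keratins (-1.95 ± 0.38). Tfap2a, a factor of surface ectoderm, had 0.819 ± 1.14 against 20.2 ± 12.6 and was lower.

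Notch receptors pass signals between neighbouring cells, and the Hes and Hey repressors are their usual targets. Of 21 Notch pathway genes tested, 3 were higher, 3 lower and 15 not called (median 0.10). These counts were not far from the shares over all genes, 10.1% higher and 10.7% lower. Against epithelial cells without basal keratins, 7 of 20 were higher (Hey1, Notch2, Jag1, Jag2, Notch3, Maml2 and Hes1) and 2 lower (Mfng and Hes6), with a median of 0.21. Hey1 was nearly level across libraries, at 151, 151, 165 and 152 CPM against 32.6, 52.9, 41.2 and 28.7 (1.98 ± 0.14, adjusted p = 3.15e-08). Hes1 was abundant in both groups, at 490 ± 128 against 359 ± 90.1 (0.46 ± 0.10), and its groups overlapped. The receptor Notch2 was higher (83.7 ± 37.1 against 42.7 ± 18.2, 1.01 ± 0.12) and Notch1 lower (29.99 ± 9.36 against 51.1 ± 17.0, -0.73 ± 0.15). Notch3 missed the threshold (0.47 ± 0.16, adjusted p = 0.0511) but was called against cells without basal keratins (0.67 ± 0.16). Mfng, which modifies Notch proteins, was lower, at 10.2 ± 1.89 against 34.2 ± 10.4. Hes1 and Mfng lost their calls when all other epithelial cells were held to the same neuronal limits, but were called against those without basal keratins (0.47 ± 0.11 and -1.52 ± 0.27).

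Retinoic acid is made from vitamin A by Aldh1a enzymes and acts through nuclear receptors. Of 18 genes of the pathway tested, 3 were higher and 10 lower (median -1.04). Aldh1a3, a synthesising enzyme, had 7.74, 23.8, 21.7 and 24.7 CPM against 30.3, 131, 122 and 70.7 (-2.28 ± 0.17, adjusted p = 5.26e-08). Stra6, the receptor of the retinol carrier, was lower too (2.73 ± 2.303 against 13.4 ± 4.15). Neither gene's groups overlapped. The retinoic acid-degrading enzyme Cyp26b1 was also lower (1.28 ± 1.03 against 9.29 ± 2.76). The receptor Rarb was higher, at 48.9, 131, 284 and 210 against 13.1, 37.8, 65.1 and 58.6 (1.94 ± 0.11), and Crabp2, which carries retinoic acid to the nucleus, was higher at 709 ± 249 against 457 ± 157 (0.65 ± 0.11). Crabp2 was not called against cells without basal keratins (0.43 ± 0.15, adjusted p = 0.0563). The third higher gene was Aldh1a1, another synthesising enzyme, at 11.2 ± 13.2 against 5.03 ± 3.54 (1.05 ± 0.31, adjusted p = 0.0228). Its call was lost without replicate 1, in DESeq2, with at least 2 Cyp2g1 UMIs required and with all other epithelial cells under the same neuronal limits.

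Genes of growth factor signalling and axon guidance were mixed. Of all genes tested against other epithelial cells, 10.1% were higher and 10.7% lower, and the FGF counts were not far from these shares. Among 31 genes of BMP, TGF-beta and Wnt signalling, 6 were higher and 9 lower (median -0.16). The receptors Bmpr1b (394 ± 304 against 111 ± 72.7) and Fzd8 (34.6 ± 9.73 against 9.52 ± 2.27) were higher, as was Gdf11, a ligand that limits neuron production in this tissue (42.4 ± 10.7 against 17.8 ± 7.38). The ligand Wnt6 had 0.733 ± 0.873 against 45.6 ± 28.2, and Fst, an inhibitor of activins, 2.91 ± 2.73 against 66.0 ± 43.6. Both were lower. Among 20 FGF pathway genes, 3 were higher and 4 lower (median -0.19), with Fgf20 (1.48 ± 0.28) and the feedback inhibitor Spry1 (0.87 ± 0.16) among the higher and the receptor Fgfr2 (-0.99 ± 0.13) among the lower. Against epithelial cells without basal keratins, Spry1 was higher and Fgf15 lower among 17 tested, Fgf20 and Fgfr2 were not called, and Wnt6 was not tested. Of 29 guidance genes, 4 were higher and 15 lower (median -0.73). The secreted cue Ntn1 had 22.7, 86.8, 141 and 90.7 CPM against 5.95, 29.8, 42.2 and 29.9 (1.71 ± 0.13). The receptors Dcc (-2.84 ± 0.24), Nrp2 (-2.38 ± 0.22) and Robo2 (-2.23 ± 0.15), which neurons use to read such cues, were lower.

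Against all other epithelial cells, 14 of 14 markers of stratified and basal epithelium were lower, with a median of -3.24. Against those without basal keratins, 2 of 5 tested were higher (Krt17 and Sfn) and the median was 0.41. Only the comparison cells were chosen for having no UMI of Krt5, Krt14 and Krt15, so this comparison is one-sided for basal genes. Krt5, a basal keratin, had 5.56 ± 4.77 CPM against 240 ± 109 (-5.71 ± 0.20), and Krtdap, a product of differentiating keratinocytes, had 1.45 in replicate 1 and 0 in the others against 150 ± 29.5. Cstdc5 had 0 in all 4 libraries against 65.9 ± 45.6. Of 9 keratins tested, 7 were lower. Krt23, an acidic keratin, was higher (102, 156, 536 and 152 against 20.4, 44.4, 54.6 and 14.5, 2.60 ± 0.21), with replicate 4 above the rest. Of 15 neuronal markers 14 were lower and 1 was higher (median -2.65), but the rule limits neuronal transcripts in the selected cells only. With the same limits on both sides, 4 of 14 were lower and 1 higher, and the median was -0.39. Against those without basal keratins, under the same limits, 10 of 14 were lower and the median was -1.29. All 10 mesenchymal markers were lower, with a median of -1.16.

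Respiratory and gland genes included higher and lower members, against 10.1% higher and 10.7% lower among all genes tested. The gland counts were not far from these shares. Of 8 respiratory and ciliated markers tested, 2 were higher and 2 lower. Bpifa1, a secreted protein of airway epithelium, had 1819, 239.7, 10.8 and 1269.5 CPM against 793, 54.4, 13.9 and 76.0 (2.14 ± 0.37, adjusted p = 4.57e-04 in edgeR, not called by DESeq2). Its UMIs came from few cells: 20 of 180 in replicate 1, 19 of 208 in replicate 2, 1 of 58 in replicate 4 and 2 of 25 in replicate 5, where 1 cell held 272 of 308 UMIs. Foxj1, which drives formation of motile cilia, was lower (5.50 ± 9.61 against 14.7 ± 19.4, -1.26 ± 0.29), a call lost without replicate 1, in DESeq2 and with at least 2 Cyp2g1 UMIs required. Of 6 Bowman's gland and microvillar cell markers tested, 1 was higher (Aqp5, given above), 1 was lower and 4 were not called, with a median of -0.25. The lower gene was Sox9, found in Bowman's gland precursors (16.2 ± 12.5 against 55.2 ± 12.4, -1.26 ± 0.24).

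Few proliferation genes were called against other epithelial cells. Of 18 S-phase genes edgeR called 0, with 1 at an unadjusted p below 0.05, and DESeq2 called 0. Of 20 G2/M genes Cenpe alone was called (0.36 ± 0.11, adjusted p = 0.0312), and this call was lost without replicate 1, without replicate 2, in DESeq2, after thinning, with doublets removed and with no filter on low counts. Mki67, a marker of dividing cells, had 95.8, 130, 223 and 78.3 CPM against 86.1, 104, 203 and 88.7 (0.17 ± 0.10, adjusted p = 0.280). After thinning to 2000 UMIs, 25.6% ± 4.30 (SD, n = 4) of sustentacular cells and 26.3% ± 4.93 of other epithelial cells held a UMI of Mki67 or Top2a, with 45.4% and 43.3% before thinning. Mesenchymal cells had 16.6% after thinning and 26.2% before. Genes that respond to tissue dissociation also moved: of 14, 6 were higher and 3 lower, with Atf3 at 903, 483, 723 and 251 CPM against 365, 380, 349 and 251 (0.76 ± 0.15). Their part in the other differences was not tested.

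**Figure D3:**
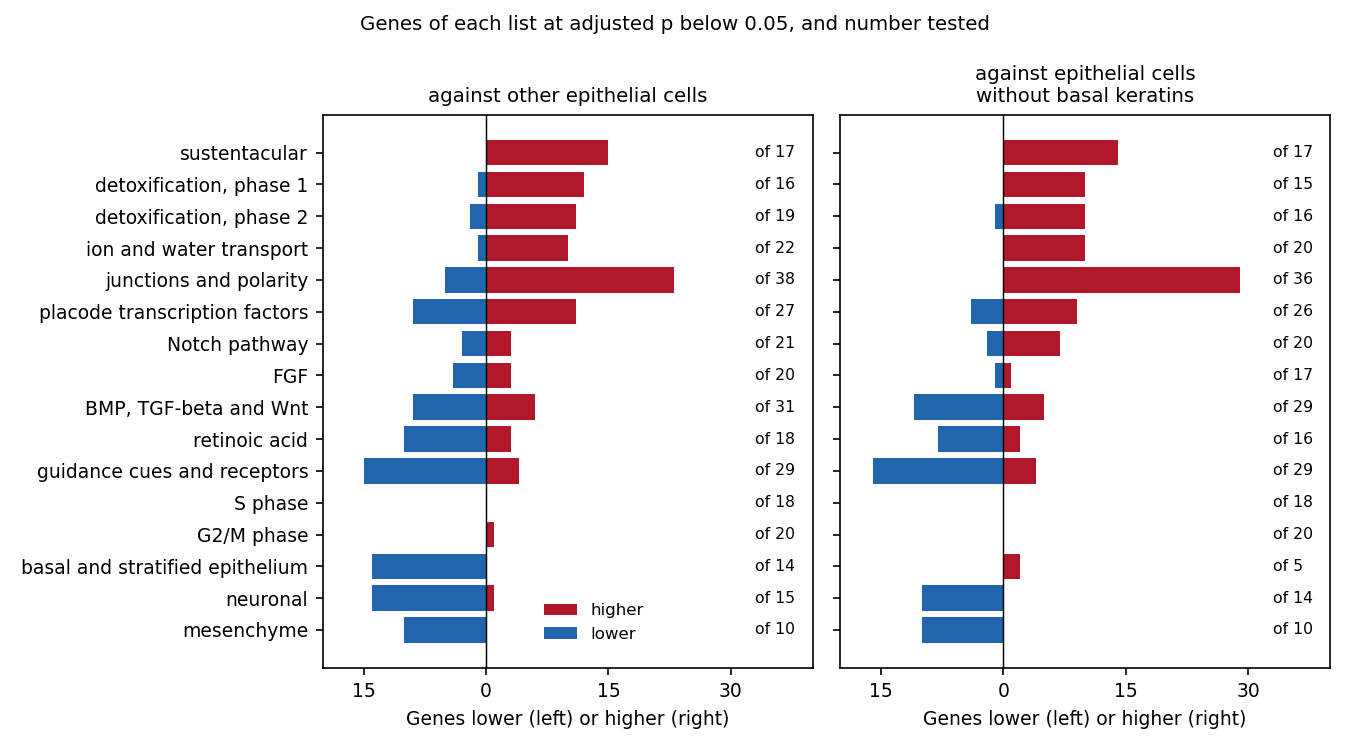
Number of genes of each list called higher (red, to the right) or lower (blue, to the left) in sustentacular cells at adjusted p below 0.05, with the number tested at the right, against all other epithelial cells and against epithelial cells without basal keratins. Junction genes reach 23 of 38 and 29 of 36 higher, while S-phase genes reach 0 of 18.

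Against epithelial cells without basal keratins, many of the same genes had the largest rise. Cyp2a5 (4.65 ± 0.20), Aqp5 (4.39 ± 0.36), Slc39a2 (3.70 ± 0.24), Fmo6 (3.36 ± 0.26), Svopl (3.33 ± 0.22), Ugt2a1 (3.22 ± 0.26) and Aqp4 (3.13 ± 0.18) came first among genes averaging at least 50 CPM. Sult1e1 (2.37 ± 0.15), Acsm4 (2.49 ± 0.14) and Sec14l2 (2.80 ± 0.21) were higher but not among the first 12. Of the sustentacular markers 14 of 17 were higher (median 1.31), against 15 of 17 in the wider comparison (median 1.06). Por (2.59 ± 0.16), Gstm5 (2.23 ± 0.11), Otx2 (1.79 ± 0.16), Hey1 (1.43 ± 0.14) and Sox2 (1.32 ± 0.15) were also higher there. Among the lower genes were Barx1, a factor of facial mesenchyme and stomach (13.0 ± 13.8 against 124 ± 57.5), Tfap2b (9.56 ± 6.97 against 101 ± 62.3), Aldh1a3 (19.5 ± 7.93 against 127 ± 71.3) and Twist1, a mesenchymal factor (20.1 ± 7.56 against 116 ± 36.8). The cells without basal keratins carried more mesenchymal RNA than the sustentacular cells, with marker sums of 1226 to 4187 CPM.

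Set against all other kept cells of the nose, 15177 genes were tested, of which 2392 (15.8%) were higher and 3148 (20.7%) lower, against 2643 called in all without the library block. By the same rule, Aqp5 (6.03 ± 0.39), Cyp2a5 (6.01 ± 0.19), Ugt2a1 (5.57 ± 0.31), Fmo6 (5.29 ± 0.25) and Sult1e1 (5.19 ± 0.23) had the largest rise. Aox2, an aldehyde oxidase, had 206 ± 102 CPM against 6.55 ± 4.22 (4.98 ± 0.17). Of 38 junction genes 33 were higher and 1 lower, and of 19 sustentacular markers 18 were higher (median 3.11). Of 20 G2/M genes 12 were higher, Mki67 among them (0.48 ± 0.12), and of 18 S-phase genes 3 were higher (Hells, Ung and Uhrf1). Globins were among the genes with the largest fall, with Hbb-y at 4.31 ± 2.73 against 166 ± 126. The mesenchymal factor Twist2 was also among them, at 2.75 ± 1.12 against 77.8 ± 42.2. The comparison shares the sustentacular sums with the others and is not independent of them.

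The sustentacular cells differed among themselves in Cyp2g1. Of the 471 WT cells, 145 held 1 Cyp2g1 UMI, 162 held 2 to 4 and 164 held 5 or more, and the median was 4, 2.5, 3 and 1 in replicates 1, 2, 4 and 5. Cells with the most Cyp2g1 UMIs were deeper: in replicates 1, 2 and 4 median depths were 7570 to 8211.5 UMIs in the lowest class, 7403.5 to 7750 in the middle and 9257 to 17620 in the highest. Levels in CPM in replicates 1, 2 and 4, the libraries with at least 10 cells in every class, are given without a test because Cyp2g1 chose the cells. Cyp2a5 had 96.8, 58.4 and 0 CPM in the lowest class and 296, 107 and 65.5 in the highest, so it was higher in the highest class in each library. Por had 210, 90.8 and 160 in the lowest and 461, 206 and 340 in the highest. Acsm4 went from 138, 110 and 185 to 205, 325 and 282, and Sox2 from 246, 244 and 320 to 349, 353 and 451. Hes1 gave no common order, with 460, 433 and 691 in the lowest class and 622, 448 and 559 in the highest. Nor did Ermn, a cytoskeletal protein and sustentacular marker, which went from 136, 110 and 177 to 338, 148 and 169.

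**Figure D4:**
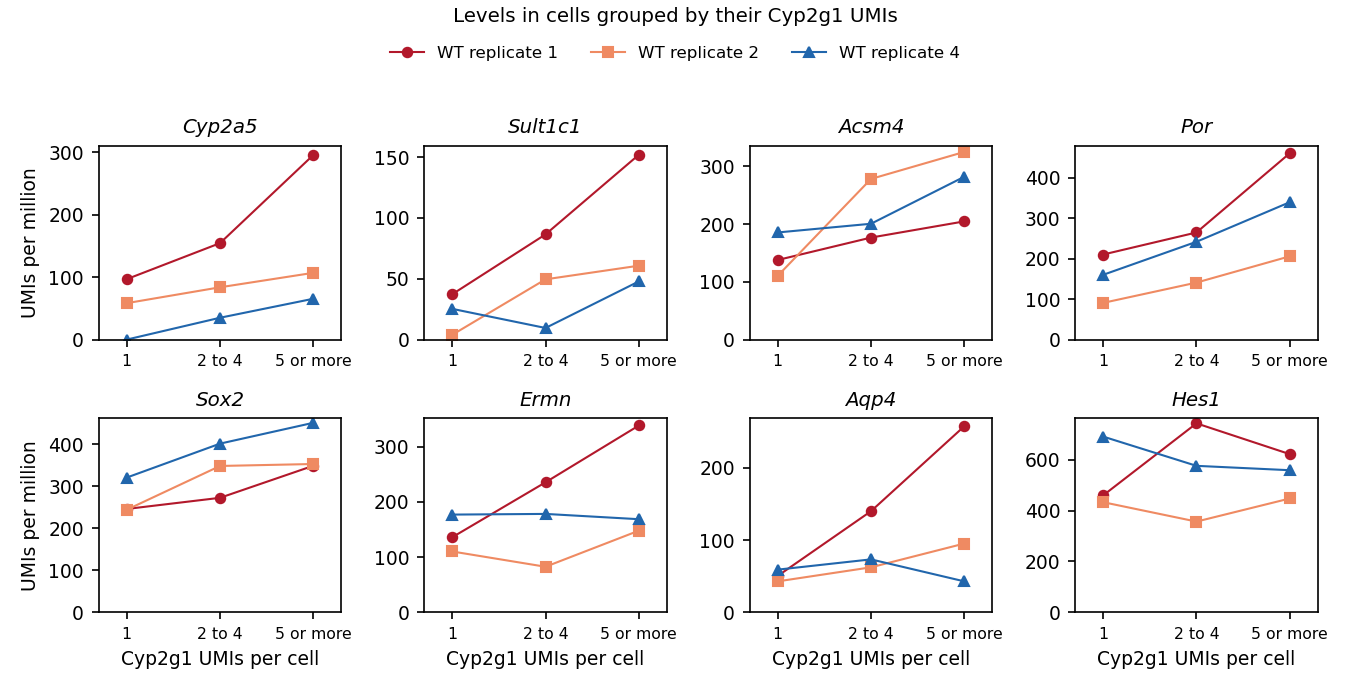
Levels in CPM of 8 genes in sustentacular cells grouped by their number of Cyp2g1 UMIs, with a line for each of WT replicates 1, 2 and 4. Cyp2a5, Acsm4, Por and Sox2 are higher in the class with 5 or more than in the class with 1 in each of these libraries, whereas Hes1 and Ermn differ in direction between libraries.

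In the cells with 1 Cyp2g1 UMI, mesenchymal markers summed to 2175, 524 and 245 CPM in replicates 1, 2 and 4, against 619, 486 and 257 in the highest class. The lower sum in the highest class was thus found in replicate 1 and was small or absent in the others. Aldh1a3 went from 14.9 to 3.04 CPM in replicate 1 and from 54.5 to 6.61 in replicate 2, but from 8.43 to 15.1 in replicate 4.

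Neurog1, a factor of neuronal precursors, and Omp, a protein of mature olfactory neurons, were near 0 in the sustentacular cells, at 1.14 ± 1.32 and 0.121 ± 0.242 CPM.

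In the ProKR2iCre/R26tdTomato nose 10 sustentacular cells were found, 5 of 1789 kept cells in replicate 1 (0.279%, interval 0.0908% to 0.651%) and 5 of 1111 in replicate 2 (0.450%, 0.146% to 1.05%). They were 1.51% and 1.76% of the sustentacular and other epithelial cells. In replicate 2 neuronal markers of the other epithelial cells summed to 9061 CPM, against 1191 to 3633 in WT libraries. Its 1.76% may therefore not be comparable with the WT shares. With 1 nose, another strain and an unlabelled sort, these libraries were described and not tested. Sox2 had 668 and 470 CPM, above all 4 WT values, and Sult1e1 had 1374 and 553. Svopl (209 and 235) and Otx2 (479 and 388) were also above every WT library. So were Mki67 (327 and 247), Top2a (796 and 635) and the summed G2/M genes (4663 and 4598). Median depths of these cells were 29691 and 15884 UMIs, against 8003.5 to 9621 in WT libraries. Cyp2a5 had 14.2 and 0, below every WT library, and Gstm5 had 687 and 647, also below them. Prokr2 itself, the gene that drives Cre, averaged 0.409 ± 0.568 CPM in WT sustentacular cells. In other epithelial cells it had 0.271, 3.01, 15.2 and 0.99002 CPM in replicates 1, 2, 4 and 5, and in those without basal keratins, which are under the same neuronal limits, 0.138, 1.31, 3.26 and 1.65.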

How the data were processed

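Whole embryonic noses were profiled by droplet single-cell RNA sequencing with 3′ tags. Per the file headers, the deposited values are raw UMI counts per gene and barcode, written by the authors with Cell Ranger 6.0.1 (WT replicate 1), 7.0.0 (the other WT libraries) and 6.1.2. The submitters' processing notes name Cell Ranger 4, Seurat 4.3.0 and mm10. Genes present in every file (30344) were used and held 99.16% to 99.86% of UMIs. Cells were chosen by transcripts as stated in the report. The members and lists were chosen with earlier results of these data known. Scrublet's automatic threshold marked at most 0.333% of barcodes and did not work, so cells were kept, and removal at the expected doublet rate was an alternative.

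Counts were summed per library and cell group and tested in edgeR 4.0.16 (R 4.3.3) by the quasi-likelihood test, with TMM normalization, filterByExpr, the library as a block and Benjamini-Hochberg adjustment over all genes tested. Adjusted p-values in the text are from it. Both groups of a pair come from the same library. Their deviations from the group means correlated at 0.801, 0.463, 0.651 and 0.268 in replicates 1, 2, 4 and 5 against other epithelial cells. The test recovered known changes in simulated counts, whose spread between libraries was set in advance and not taken from these data. Changes were planted only in genes above a minimum count. Alternatives were DESeq2 1.42.0, no TMM, no filter, no block, thinned cells, stricter cells (3 libraries, since replicate 5 keeps 5 sustentacular cells), at least 2 Cyp2g1 UMIs, doublets removed, the same neuronal limits on both sides, replicate 3 in place of 4, and each library left out. Named genes were the 12 with the largest and the 12 with the smallest log2 fold change among those with adjusted p below 0.05, the same direction in every library and a mean of at least 50 CPM in the higher group, together with the genes of the lists. Positions are from GENCODE vM21 on GRCm38. Some genes of the lists are counted but not reported by name here.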

Additional observations from a re-analysis of the deposited data

Results flagged for a closer look

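In sustentacular cells, 14 of 133 gene and library sets had a library whose gap to the nearest of the others exceeded the 95% critical value of Dixon's test for 4 values. Chance alone marks about 1 in 20. The library farthest from the rest was WT replicate 1 in 10 sets, replicate 4 in 3, replicate 2 in 1 and replicate 5 in 0. All values are in CPM. In replicate 1, AU021092 stood at 208.5 (12.05 to 28.85 in the others), Aqp4 at 172.7 (45.34 to 66.52) and the epoxide hydrolase Ephx1 at 167.4 (86.77 to 96.33). The retinaldehyde dehydrogenase Aldh1a1 stood at 30.96 there (4.122 to 4.82), with 41 of its 64 UMIs from 1 cell.

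Several genes best known from other cells or tissues were also high in replicate 1. The bone matrix protein Ibsp stood at 284.4 (0 to 9.503) and the globin Hbb-bs at 169.3 (12.53 to 24.73). The respiratory and ciliary genes Scgb1c1, Foxj1 and Dynlrb2 stood at 76.91 (0 to 11.66), 19.83 (0 to 2.16) and 32.41 (0 to 1.296), and Krtdap at 1.451 (0 in the others). For some, 1 cell gave most of the UMIs: 302 of 588 for Ibsp, 224 of 350 for Hbb-bs, 59 of 67 for Dynlrb2 and 35 of 41 for Foxj1. The Scgb1c1 UMIs came from 39 of 180 cells, with 18.24% from the richest, and Scgb1c1 was called higher in sustentacular cells in all 3 comparisons.

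In replicate 4, Krt23 stood at 536.3 (101.6 to 156.4), Sox2 at 413.3 (301.8 to 317.4) and Hey1 at 165.1 (151.2 to 152.5). In replicate 2, Galntl6 stood at 7.343 (0 to 1.205). Replicate 4 also had the highest Eya4 and Bmpr1b levels.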

How the results depend on the processing

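The counts of called genes moved by more than 1.5 times in 2 settings. With no replicate block, so that the library pairing was ignored, 484 genes were called against other epithelial cells, 2643 against all other kept cells and 266 against epithelial cells without basal keratins. With cells thinned to 2000 UMIs, 1061, 3224 and 1070 were called, of fewer genes tested. The causes of these moves were not tested. Main counts were 2546, 5540 and 2184. The higher genes made up 48.59% of calls against other epithelial cells and 35.89% with no filter on low counts. Against all other kept cells they made up 43.18% and, after thinning, 33.68%. Against cells without basal keratins they made up 50.64% and, with no block, 61.28%. Leaving out 1 library gave 2005 to 2399, 4221 to 5471 and 1588 to 1993 calls, and a mean share of 1.192% to 1.706%. Of 171 gene results named, 96 kept their direction and side of the threshold in every setting run, and 0 of 2288 gene values reversed. Of 124 losses of a call, 70 came with no block. The added ProKR2iCre/R26tdTomato replicate 1 was not run because it holds 5 sustentacular cells. Genes below the filter could not be tested, and the 25 cells of replicate 5 limit its precision.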

Other observations

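Maml2, a coactivator of Notch proteins, had 6.77 CPM in sustentacular cells of WT replicate 1 and 190, 221 and 169 in replicates 2, 4 and 5. Muc2, a secreted mucin, averaged 6.78 ± 7.77 CPM in sustentacular cells and 0.373 ± 0.226 in other epithelial cells (SD, n = 4). Gnrh1, the hormone of neurons that migrate through the embryonic nose, averaged 0.324 ± 0.648 in sustentacular cells.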
